A study of Mus musculus with 7 samples.

Results

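Platelet-derived growth factors (PDGF) are a pathway of 4 ligand genes (Pdgfa, Pdgfb, Pdgfc and Pdgfd) and 2 receptor genes (Pdgfra and Pdgfrb). Cspg4 and Rgs5 are used with Pdgfrb as markers of pericytes, the contractile cells that wrap small blood vessels. These 8 genes were picked by symbol from a table of read counts of 55228 rows, and each had its own row. The libraries were from primary ovarian granulosa cells, the somatic cells that surround the oocyte, of C57BL/6J mice without treatment. There were 3 libraries from mice with the genotype Fhl2 KO and 4 from WT mice. Neither the age of the mice nor the kind of knockout allele is in the labels. Since the labels also leave unsaid whether each library came from its own mouse or culture, p-values speak only of the spread among these libraries, which may be partly technical. The comparison asks which of these genes differ between granulosa cells with and without intact Fhl2, which codes for a LIM-domain cofactor of transcription and of the cytoskeleton.

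PDGF ligands are dimers that bring 2 receptor chains together and switch on their tyrosine kinases. The A, B and C chains bind the alpha receptor, and the B and D chains bind the beta receptor. The C and D chains are secreted in a latent form and must be cut by a protease before they bind. In vessels, PDGF-B from endothelial cells draws in pericytes that carry the beta receptor. In the ovary, ligands from granulosa cells and oocytes are known to act on the receptor-bearing theca and stromal cells outside the follicle.

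Each library held 38855596 to 50514556 counts. Levels are given as CPM, read counts brought to a common library total after TMM scaling. Fhl2 had 47.9, 66.7 and 60.3 CPM in KO libraries 1 to 3, against 100.9, 114.1, 106.0 and 109.8 CPM in WT libraries 1 to 4, so its reads were fewer in every KO library but not gone. The granulosa markers Inha, Inhba and Foxl2 were present at 1698, 2026 and 52.5 CPM in KO and at 1042, 3095 and 70.1 CPM in WT. Cyp19a1, the enzyme of estradiol synthesis, was near 0 at 0.233 CPM in KO and at 0 in WT. The libraries also differed in how levels depend on transcript length. Per doubling of length, log2 CPM relative to the mean of all libraries changed by -0.00163, -0.170 and -0.133 in KO libraries 1 to 3 and by 0.0581 to 0.0855 in the WT libraries. Values with each library's trend on length and GC content removed are given as corrected values.

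Of the 8 genes, 7 had enough reads to be tested and Rgs5 had none. Pdgfb, Pdgfra and Cspg4 were lower in the KO libraries. The number higher was 0 by edgeR, DESeq2 and limma, and also 0 at an unadjusted p under 0.05 in each. Over all 15798 genes tested with edgeR's quasi-likelihood test, 29.0% were called, 15.6% lower and 13.5% higher. The same 3 genes were called in the length and GC correction, where 11.4% of all genes were lower and 12.2% higher. The median log2 fold change was -0.35 over the 7 genes (corrected -0.32) and -0.000184 over all genes tested (corrected 0.01). In bulk libraries, fewer cells of a type and less RNA per cell cannot be told apart.

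**Figure D1:**
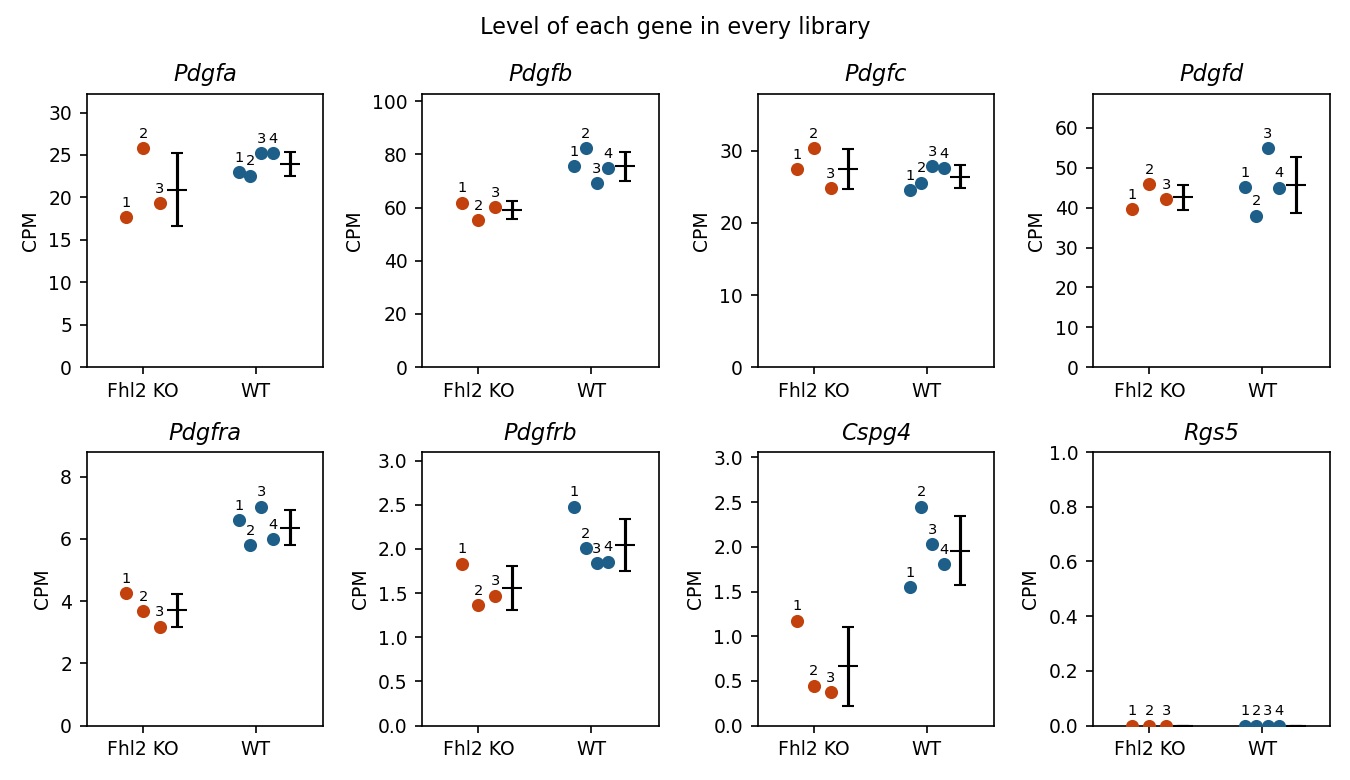
Level (CPM) of the 8 genes in each library, numbered as in the labels; bars are mean ± SD of 3 Fhl2 KO libraries and 4 WT libraries. For Pdgfb, Pdgfra, Pdgfrb and Cspg4 each KO library lay below each WT library, as for 17.7% of all genes tested. The gap was small for Pdgfrb (1.83 CPM in KO library 1 and 1.84 CPM in WT library 3), and Rgs5 was at 0 throughout.

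Among the ligands, Pdgfb was the one that fell. This gene of the B chain, the only chain that both receptors bind well, lies on chromosome 15 from 79995874 to 80014977 on the minus strand (mm10). It had 61.9, 55.2 and 60.2 CPM in KO libraries 1 to 3, against 75.6, 82.4, 69.2 and 74.8 CPM in WT libraries 1 to 4. The groups did not overlap, as was so for 34.2% of all genes tested. The level averaged 59.1 ± 3.45 CPM in KO (SD, n = 3) and 75.5 ± 5.39 CPM in WT (SD, n = 4). That is 0.783-fold, or -0.35 on the log2 scale (SE 0.0917, adjusted p = 0.00986 by edgeR), and -0.44 after the correction (adjusted p = 4.41e-04). KO library 1 alone against the WT libraries gave -0.29 (adjusted p = 0.135), with the lone library assumed to vary like the WT ones.

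Pdgfa, the gene of the A chain on chromosome 5 (138976014 to 138997370, minus strand), had 17.7, 25.8 and 19.3 CPM in KO and 23.0, 22.5, 25.2 and 25.2 CPM in WT. KO library 2 lay above every WT library, and the other KO libraries lay below them all. The log2 fold change was -0.19 (95% interval -0.45 to 0.06, adjusted p = 0.242 by edgeR) and did not pass. Pdgfa passed without KO library 2 (-0.36, adjusted p = 0.0277), for KO library 1 alone (-0.44, 0.0497) and with a correction for length alone (-0.33, 0.0410), and it missed the threshold with the correction for length and GC (-0.32, 0.0533). Pdgfa overlaps the antisense gene 6330403L08Rik, whose row held 111 to 115 counts in KO and 105 to 157 in WT, beside 694 to 1211 in KO and 890 to 1178 in WT for Pdgfa. Without a stated strand setting, reads of the pair may not be fully separated. Annotated genes that overlap the other ligands and Pdgfra had at most 13 counts in a library.

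The latent ligands did not pass the test. Pdgfc, of the C chain, had 27.5, 30.4 and 24.8 CPM in KO and 24.6, 25.6, 27.9 and 27.6 CPM in WT, so the groups overlapped. Its log2 fold change was 0.06 with a 95% interval of -0.15 to 0.27 (adjusted p = 0.691 by edgeR), which leaves out a change of 1.21-fold or more in the upward direction. Pdgfd, of the D chain, had 39.6, 45.9 and 42.2 CPM in KO and 45.1, 37.9, 54.9 and 45.0 CPM in WT. The WT libraries spanned the KO libraries at both ends (log2 fold change -0.10, interval -0.34 to 0.13, adjusted p = 0.527 by edgeR). Pdgfc lies on chromosome 3 from 81036416 to 81214040 and Pdgfd on chromosome 9 from 6168584 to 6378850, both on the plus strand.

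Both receptor genes stood far below the ligands in level per length, and the alpha receptor fell. Pdgfra, the alpha receptor, lies on the plus strand of chromosome 5 from 75152292 to 75198215. It had 4.25, 3.68 and 3.18 CPM in KO libraries 1 to 3, against 6.61, 5.79, 7.03 and 6.00 CPM in WT libraries 1 to 4. All KO libraries were lower than all WT libraries, as for 17.7% of all genes tested. Behind these levels stood 145 to 173 counts per KO library and 256 to 329 per WT library. Pdgfra fell to 3.71 ± 0.537 CPM in KO (SD, n = 3), against 6.36 ± 0.567 CPM in WT (SD, n = 4). This is 0.583-fold, or -0.78 on the log2 scale (SE 0.154, adjusted p = 0.00210 by edgeR). After the correction the change was -0.43 (adjusted p = 0.0324), and for KO library 1 alone it was -0.58 (0.114).

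Pdgfrb, the beta receptor and a pericyte marker on chromosome 18 (61045150 to 61085061, plus strand), had 1.83, 1.36 and 1.47 CPM in KO and 2.48, 2.01, 1.84 and 1.85 CPM in WT. These levels rest on 64 to 72 counts per KO library and 81 to 101 per WT library. The 95% exact Poisson interval of KO library 1, 1.44 to 2.31 CPM, held the levels of 3 of the 4 WT libraries. The log2 fold change of -0.39 did not pass (interval -0.87 to 0.08, adjusted p = 0.203 by edgeR, corrected -0.23, 0.462). A fall to 0.546-fold lies within that interval, as does no change. The ratio of Pdgfra to Pdgfrb per length was 1.31 ± 0.152 in KO (SD, n = 3) and 1.72 ± 0.277 in WT (SD, n = 4), with overlapping libraries, and whether the 2 receptors changed unequally was not tested.

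Levels of different genes can be set side by side only per length, here as CPM per kilobase of merged exons (RPKM). On this scale Pdgfb averaged 14.2 ± 0.83 in KO and 18.1 ± 1.30 in WT, and Pdgfd 13.5 ± 0.990 in KO and 14.5 ± 2.21 in WT (SD, n = 3 KO and 4 WT). Pdgfa averaged 6.71 ± 1.38 in KO and 7.68 ± 0.453 in WT, and Pdgfc 5.41 ± 0.547 in KO and 5.19 ± 0.313 in WT. The libraries of Pdgfb and Pdgfd overlapped in both genotypes, and those of Pdgfa and Pdgfc overlapped in KO and not in WT. Next came Pdgfra with 0.370 ± 0.0535 in KO and 0.634 ± 0.0566 in WT, Pdgfrb with 0.284 ± 0.0451 in KO and 0.373 ± 0.0545 in WT, and Cspg4 with 0.0557 ± 0.0370 in KO and 0.164 ± 0.0320 in WT. The receptors overlapped in KO and not in WT. Among 15573 tested genes with a length, Pdgfb stood at percentile 79.5 and Pdgfd at 76.8, whereas Pdgfra stood at 21, Pdgfrb at 16.1 and Cspg4 at 6.43. The 4 ligands summed to 38.5 to 42.0 RPKM in KO and 44.1 to 47.6 in WT. The receptors summed to 0.586 to 0.759 RPKM in KO and 0.937 to 1.11 in WT. The ligand sum was 50.7 to 68.2 times the receptor sum in KO and 40.2 to 48.8 times in WT. These sums are not corrected for the length trend. The longest transcripts of Pdgfra and Pdgfrb have 6834 and 5423 bases, and those of the ligands 2060 to 3521. Corrected log2 fold changes were -0.32, -0.44, 0.12 and -0.11 for Pdgfa to Pdgfd, -0.43 for Pdgfra and -0.23 for Pdgfrb. The part of the length trend in this ratio was not tested.

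**Figure D2:**
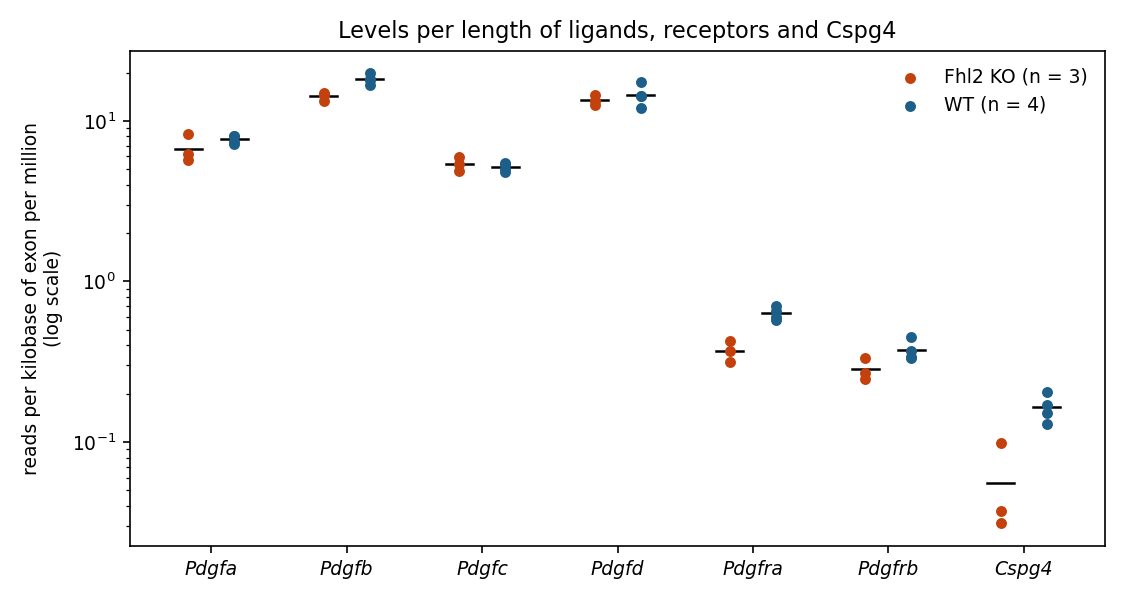
Level per length (RPKM, log axis) of the ligands, receptors and Cspg4; points are libraries (3 Fhl2 KO, 4 WT) and lines are means. The ligands lie between 4.83 and 19.8 RPKM, all above the receptors, which lie between 0.249 and 0.702.

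Of the pericyte markers, Cspg4 fell and Rgs5 had no reads. Cspg4 codes for NG2, a large transmembrane chondroitin sulphate proteoglycan of pericytes and other progenitor cells, and lies on the plus strand of chromosome 9 from 56865033 to 56899870. It had 1.17, 0.447 and 0.373 CPM in KO libraries 1 to 3, against 1.55, 2.45, 2.03 and 1.81 CPM in WT libraries 1 to 4. Every KO library was below every WT library, as for 17.7% of all genes tested. KO library 1 stood apart from the other KO libraries and near WT library 1. The counts were 46, 21 and 17 in KO and 60, 123, 95 and 79 in WT, and the 95% exact Poisson intervals of KO library 1 (0.858 to 1.56 CPM) and WT library 1 (1.18 to 1.99 CPM) overlapped. Intervals and floors of this kind hold counting error alone, because reads lacking molecular identifiers need not be separate molecules.

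The change of Cspg4 was 0.334-fold, or -1.58 on the log2 scale (SE 0.352, 95% interval -2.33 to -0.84, adjusted p = 0.00444 by edgeR), and -1.32 after the correction (adjusted p = 0.010). It was -2.23 without KO library 1 (adjusted p = 4.69e-05), -1.30 without KO library 3 (0.0397) and -0.75 for KO library 1 alone (0.274). KO library 1, with the length trend nearest to the WT libraries, was also the KO library with the most Cspg4. The longest transcripts of Cspg4 and Pdgfra have 8121 and 6834 bases. Among 2039 tested genes with a transcript over 6000 bases, a bound chosen after seeing these data, the median log2 fold change was -0.35 and 44.4% were lower. Corrected values aside, the part of the length trend in the changes of Cspg4 and Pdgfra was not tested.

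Rgs5, a regulator that shortens G protein signals and an abundant transcript of pericytes, had 0 counts in all 7 libraries. It lies on chromosome 1 from 169655501 to 169695813, and no other gene of the annotation overlaps it. A count of 0 allows up to 3 counts, which over the pooled libraries is 0.0228 CPM in KO and 0.0167 CPM in WT. Per length this limit is 0.00501 RPKM in KO and 0.00368 RPKM in WT, below the Cspg4 level. No comparison between genotypes was possible for Rgs5.

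**Figure D3:**
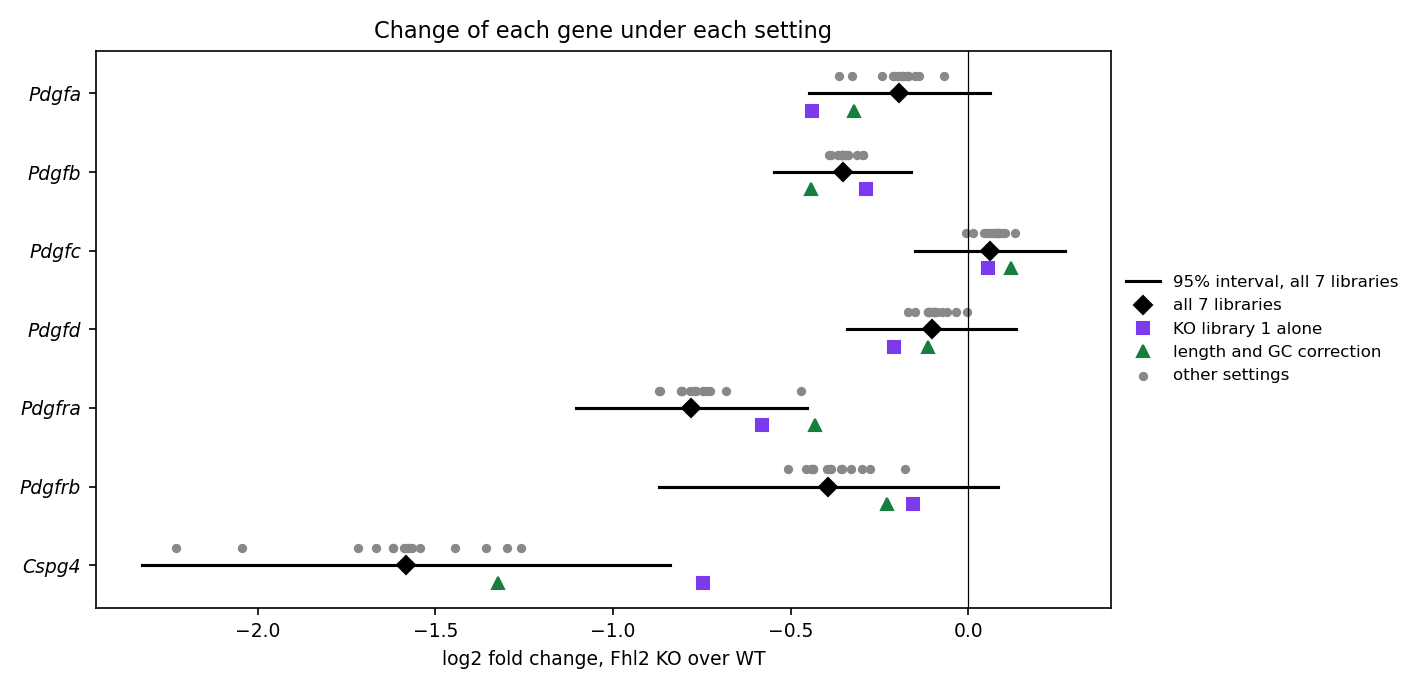
Log2 fold change, Fhl2 KO over WT, of the 7 genes tested; diamonds and lines are the value and 95% interval with all 7 libraries, and other symbols are alternative settings. Pdgfb, Pdgfra and Cspg4 stayed below 0 in each setting drawn, and Cspg4 ran from -2.23 to -0.75.

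The starts of these genes were read from RefSeq promoter windows (build GRCm38.p6, which is mm10), which hold 250 bases before and 50 after a transcript start. Windows were found for 6 of the 8 genes. They were searched on both strands for TATAAA, the GC box GGGCGG, the TEAD element CATTCC and the CArG box, the element of serum response factor. Of all 32851 windows, 13.6%, 35.7%, 14.7% and 1.63% held them in that order. The windows of Cspg4 and Pdgfra are shown because these genes fell most, and that of Pdgfc because this uncalled ligand was the one member whose window held a CArG box. Capitals mark the matches, and all 3 windows are on the plus strand.
Cspg4 chr9:56864854-56865153: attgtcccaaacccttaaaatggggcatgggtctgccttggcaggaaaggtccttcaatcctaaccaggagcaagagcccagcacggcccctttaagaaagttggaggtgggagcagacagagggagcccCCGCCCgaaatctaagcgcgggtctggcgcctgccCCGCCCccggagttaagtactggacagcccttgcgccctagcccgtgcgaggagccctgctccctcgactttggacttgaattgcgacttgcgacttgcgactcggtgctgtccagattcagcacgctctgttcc
Pdgfra chr5:75152001-75152300: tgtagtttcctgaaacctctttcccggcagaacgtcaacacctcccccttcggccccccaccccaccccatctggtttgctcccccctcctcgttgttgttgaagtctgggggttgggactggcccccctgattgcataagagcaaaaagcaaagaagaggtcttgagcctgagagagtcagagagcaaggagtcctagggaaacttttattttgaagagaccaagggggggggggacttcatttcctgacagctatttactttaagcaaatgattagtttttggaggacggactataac
Pdgfc chr3:81036166-81036465: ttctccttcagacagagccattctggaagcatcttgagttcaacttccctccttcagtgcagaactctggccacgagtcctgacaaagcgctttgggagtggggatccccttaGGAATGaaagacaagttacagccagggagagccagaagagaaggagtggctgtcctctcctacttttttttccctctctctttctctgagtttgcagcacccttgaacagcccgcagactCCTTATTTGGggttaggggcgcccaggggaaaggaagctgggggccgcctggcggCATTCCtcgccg
In the Cspg4 window the GC box matched at positions -120 and -85 from the transcript start, on the opposite strand. The Pdgfra window held none of the 4 motifs. The Pdgfc window held a CArG box at position -17 and CATTCC at -137 and 39, the first on the opposite strand. Of the other windows, both of Pdgfa held the GC box, that of Pdgfd held TATAAA, and that of Rgs5 held none of them. A match is a string of letters and not a measured binding site.

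Genes that carry the signal from the receptors showed small changes. Of 32 adaptors, kinases and other effectors, all tested, 2 rose, 6 fell and 24 were not called (median log2 fold change -0.10). Counts in this and the following lists stand beside 13.5% higher and 15.6% lower over all genes tested (corrected 12.2% and 11.4%). Prkca, a protein kinase C, fell by 0.67 on the log2 scale (SE 0.113, adjusted p = 6.54e-04 by edgeR), Sos1, which loads RAS with GTP, by 0.50 (SE 0.0969, 0.00182), and Ptpn11, the phosphatase SHP2, by 0.46 (SE 0.114, 0.00811). Stat5a, a transcription factor, rose by 0.42 (SE 0.0902, 0.00346). Pik3r1, the regulatory subunit of PI3 kinase, fell by 0.27 (SE 0.0962, 0.0457), at 585.4 ± 47.0 CPM in KO and 704.2 ± 60.3 CPM in WT. The length and GC correction turned this balance: 7 of the 32 rose and 0 fell (2 fell at an unadjusted p under 0.05), with a median of 0.01, and the calls of Prkca (-0.26, adjusted p = 0.0736), Sos1 (-0.13, 0.190), Ptpn11 (-0.13, 0.166) and Pik3r1 (0.10, 0.409) were lost. The remaining call of those named was Stat5a (0.44, 3.38e-04). With libraries scaled by their totals alone, 3 rose and 4 fell, beside 2630 higher and 2129 lower of all 15798 genes tested.

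Proteins that process the ligands or tune the receptors were measured as well. Of 22 such genes, 3 rose, 6 fell and 13 were not called by edgeR (median -0.17; corrected 2 rose and 3 fell, median -0.07). With limma 3 rose and 11 fell, beside 3123 higher and 3404 lower of all 15798 genes in that fit. Over all genes tested by edgeR, 13.5% rose and 15.6% fell. Plau, the urokinase that is known to release active PDGF-D, rose 2.34-fold, with 775.6 ± 86.0 CPM in KO (SD, n = 3) and 331.2 ± 30.8 CPM in WT (SD, n = 4; log2 fold change 1.23, SE 0.101, adjusted p = 4.85e-07 by edgeR; corrected 1.18). Plat, the tissue plasminogen activator that is known to release active PDGF-C, was named outside the rule after its value was seen and did not pass (-0.22, adjusted p = 0.185 by edgeR). Pcsk6, a proprotein convertase, fell by 0.62 (SE 0.135, adjusted p = 0.00389 by edgeR; corrected -0.54), and Mtss1, an actin-bundling protein, by 0.46 (SE 0.103, 0.00444; corrected -0.25). Slc9a3r1, a scaffold that binds receptor tails, rose by 0.36 (SE 0.0861, adjusted p = 0.00604 by edgeR), which was lost after the correction (0.16, 0.0638). Thbs1 and Sparc, matrix proteins of which Sparc binds PDGF-B, had 12438 and 1513 CPM in KO and 14120 and 1698 CPM in WT, and neither passed by edgeR, whereas limma called both lower, and Sparc also passed by edgeR after the correction (-0.27, adjusted p = 0.010).

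Other markers of pericytes and mural cells were few. Of 16, 9 could be tested, with 2 higher, 2 lower and 5 not called (median -0.04). Over all genes tested, 13.5% were higher and 15.6% lower. Vtn, Higd1b and Zic1 had 0 counts in every library, and Kcnj8, Abcc9, Ndufa4l2 and Foxf2 had too few reads to test. Heyl, a Notch target gene, fell to 19.7 ± 1.43 CPM in KO (SD, n = 3), against 45.3 ± 5.93 CPM in WT (SD, n = 4; log2 fold change -1.20, SE 0.114, adjusted p = 2.15e-06 by edgeR). Mcam, an adhesion protein, fell by 0.44 (SE 0.0990, 0.00447). Tbx18, a transcription factor of mural cells, rose by 1.06 (SE 0.201, adjusted p = 0.00159 by edgeR). Cox4i2, a subunit of cytochrome oxidase, rose by 0.76 (SE 0.274, 0.0451), a call lost after the correction (0.45, 0.241). The summed level of the list was 131.6 to 163.4 CPM in KO and 195.3 to 230.2 CPM in WT, most of it Mcam.

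Among markers of other cell types, most smooth muscle markers and some fibroblast markers fell, and other lists did not share this direction. The part of any cell type in the fall of Cspg4 and Pdgfra was not tested. Of 10 smooth muscle markers, 9 fell and 1 was not called (corrected 10 fell). Their summed level was 4026 to 4864 CPM in KO and 6710 to 8666 CPM in WT. Most of this sum was Cald1, with a mean of 3739 CPM in KO and 6175 CPM in WT. Acta2, smooth muscle actin, had 490.4 ± 40.4 CPM in KO and 881.7 ± 38.1 CPM in WT (SD, n = 3 and 4; log2 fold change -0.85, adjusted p = 8.78e-06 by edgeR), and Myh11, smooth muscle myosin, had 5.77 ± 1.93 CPM in KO and 24.8 ± 1.54 CPM in WT. Of 12 fibroblast and stroma markers, 5 fell (corrected 6), led by the collagen chains Col1a1, Col1a2 and Col3a1, 4 were not called and 3 had too few reads to test. Their summed level was 217.8 to 267.3 CPM in KO and 465.9 to 537.4 CPM in WT.

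Of 12 endothelial markers, 1 fell and 5 had too few reads to test. Their summed level was 4.63 to 5.35 CPM in KO and 5.28 to 6.53 CPM in WT, of which Pecam1 held 0.569 CPM in KO and 0.577 CPM in WT. The marker that fell was Erg, a transcription factor (log2 fold change -2.40, SE 0.454, adjusted p = 0.00159 by edgeR). Of 8 theca markers, 2 rose, Star and Aldh1a1, and 1 fell, Ptch1, which lost its call in the correction. The theca enzyme Cyp17a1 and the theca hormone Insl3 were near 0, at 0.0361 and 0 CPM in KO and at 0.00498 and 0.0114 CPM in WT. Of 8 immune markers, 5 were tested and 0 were called by edgeR, DESeq2 or limma, with 0 at an unadjusted p under 0.05. Of 8 surface epithelium markers, 5 rose (corrected 4), led by Krt7. Of these, Epcam had only 2 to 29 counts per library. Of 8 oocyte markers 1 fell, Bmp15, with 4 to 7 counts per KO library and 6 to 34 per WT library. Its libraries overlapped between genotypes in CPM, and limma called 0 oocyte markers lower. Of 12 granulosa markers, 3 rose and 6 fell. Beside the counts of these lists, 13.5% of all genes tested rose and 15.6% fell.

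**Figure D4:**
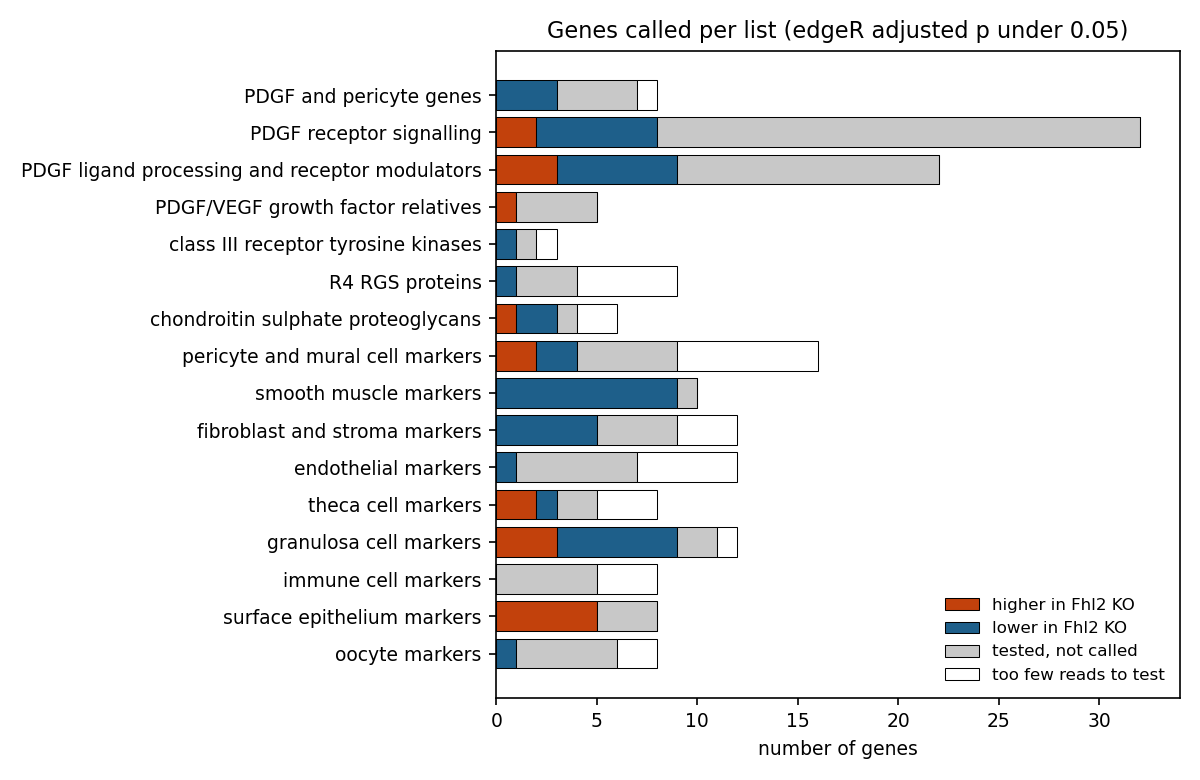
Number of genes in each list that were higher in Fhl2 KO, lower, tested and not called, or with too few reads to test (edgeR's quasi-likelihood test, adjusted p under 0.05 over all genes). Of the smooth muscle markers 9 of 10 fell, and of the pericyte and mural cell markers 2 of the 9 tested fell. Over all genes tested, 15.6% fell.

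The genes whose level followed these genes most closely were sought among 11687 genes with a mean of at least 1 CPM, by Pearson r of log2 CPM over the 7 libraries. For Pdgfb they were Vash2, Rpa1 and Rnf24 (r of 0.989, 0.981 and 0.980). For Pdgfra they were Hacd2, Mdfic and Prkar2a (0.993, 0.993 and 0.992), and for Cspg4 Ppp2r1b, Crebl2 and Suclg2 (0.989, 0.987 and 0.987). For Pdgfrb they were Sfmbt1, Thsd7b and Nol9 (0.987, 0.979 and 0.978). For Pdgfa, Pdgfc and Pdgfd the nearest were Tram1 (0.977), Nudt10 (0.954) and Tbc1d12 (0.986). None of the 8 genes was among the nearest of another, which with so many candidates does not show that they varied apart. Between pairs of the 7 genes with reads, r ran from -0.556 (Pdgfc and Pdgfrb) to 0.914 (Pdgfra and Cspg4). These values describe 7 libraries that share the genotype difference and the length trend.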

How the data were processed

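The authors deposited raw read counts per gene symbol, as whole numbers with 1 column for each of the 3 Fhl2 KO and 4 WT libraries. The build was mm10, and the tools named, without role or order, were DESeq2 1.28.1, Cufflinks 2.2.1, featureCounts 1.6.4, HISAT2 2.2.1, SAMtools and fastp, per the submitters' processing notes. Which annotation release and strand setting the counting used is not given in the sources used here. Symbols were matched to GENCODE release M21 of the same build for positions and lengths.

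Counts were tested with edgeR 4.0.16 (R 4.3.3), using filterByExpr with a minimum count of 10, TMM scaling, robust glmQLFit and glmQLFTest and genotype as sole term. The Benjamini-Hochberg adjustment ran over all 15798 tested genes, and a gene was called at an adjusted p under 0.05. Fold changes are Fhl2 KO over WT, with 95% intervals from the F statistic. The fit was tested on simulated data.

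Alternatives were DESeq2 1.42.0, limma 3.58.1 (voom with quality weights), other scalings and filters, a replicate block, each library left out in turn, KO library 1 alone against WT, 1 surrogate variable (sva 3.50.0), and offsets from per-library trends on transcript length with or without GC content (natural splines with 4 degrees of freedom). Members, lists and alternatives were chosen with earlier results of these data known. Genes of a list are named by a rule: up to 4 called genes with the smallest p and up to 4 with the highest level, and any others were named after their values were seen.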

Additional observations from a re-analysis of the deposited data

Results flagged for a closer look

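Of 87 values examined in the 4 WT libraries, 3 had 1 library set apart relative to the close spread of the rest. Chance gives about 1 in 20, so 3 is no more than chance gives. None was a PDGF gene, Cspg4 or Rgs5. The receptor Kit stood at 4.37 CPM in 1 WT library and at 4.70 to 4.76 CPM in the others. The convertase Pcsk5 stood at 357.5 CPM in 1 WT library and at 372.7 to 374.7 CPM in the others. The hedgehog receptor Ptch1 stood at 44.0 CPM in 1 WT library and at 47.7 to 48.1 CPM in the others.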

How the results depend on the processing

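Pdgfb, Pdgfra and Cspg4 were lower in every alternative that tested them. Their calls were lost for KO library 1 alone against WT, where the log2 fold changes were -0.29, -0.58 and -0.75. With 1 KO library, few genes of any kind were called in that fit, so the loss is not particular to these genes. In that setting 1 of the 8 genes was called, Pdgfa. The filter of at least 10 CPM in 3 libraries also left 1 lower, Pdgfb, since it removed the receptors and Cspg4. Leaving out each library in turn gave 3 to 4 of the 8 genes lower and 0 higher. Pdgfc, Pdgfd and Pdgfrb were called in no alternative. The number of calls over all genes also moved with the setting. Leaving out a library gave 662 to 3331 of them higher and 995 to 3409 lower, of 15604 to 16203 tested. Limma voom gave 3123 higher and 3404 lower of 15798, and the replicate block 1228 and 2073 of 15608. For PDGF receptor signalling, leaving out libraries gave 1 to 7 genes higher and 2 to 8 lower. The number higher was 6 with limma voom, 7 with either correction for length and 1 with the replicate block. The number lower was 4 with library totals alone, 0 with either correction and 1 for KO library 1 alone. For ligand processing and receptor modulators, the number lower was 11 with limma voom and 3 with the length and GC correction. For pericyte and mural cell markers, leaving out libraries gave 1 to 2 higher and 2 lower. The number higher was 1 with DESeq2, with no filter, with the replicate block, with the 6 libraries of that fit without it and with either correction, and 0 with the filter of 10 CPM and for KO library 1 alone. After the correction for length and GC, Pik3r1 stood at 0.10 and Vcan at 0.19, and after that for length alone at 0.063 and 0.17, where the main values were negative. The cause was not tested. Replicate numbers gave no sign of pairing: deviations from the group means of same-numbered libraries correlated at 0.0449, 0.00191 and -0.0496, and not every library correlated best with its own number. So few libraries cannot show that there was no pairing. In the fit with the replicate block, 3 of the 8 genes were lower and 0 higher. Depth limits Pdgfrb and Cspg4, with as few as 64 and 17 counts in a library.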

Other observations

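The relatives of the PDGF genes gave a mixed picture. Of 5 growth factors of the PDGF and VEGF family, Vegfd, a ligand of VEGF receptors, rose to 37.7 ± 2.12 CPM in KO (SD, n = 3), against 25.4 ± 1.24 CPM in WT (SD, n = 4; log2 fold change 0.57, SE 0.0926, adjusted p = 5.15e-04 by edgeR). Vegfa, Vegfb, Vegfc and Pgf were not called. Of the class III receptor kinases related to the PDGF receptors, Kit, the receptor of stem cell factor, fell by 0.47 (SE 0.171, adjusted p = 0.0450 by edgeR). This call was lost in 15 of 18 alternatives, with the fit without WT library 4 counted under more than 1 name. Among them were DESeq2 (adjusted p = 0.0538), the length and GC correction (-0.24, 0.264) and leaving out any 1 library other than KO library 1. Csf1r was not called, and Flt3 had too few reads to test.

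Among 9 RGS proteins of the same subfamily as Rgs5, 4 could be tested. Rgs2, a regulator of Gq signals, fell to 13.0 ± 1.63 CPM in KO (SD, n = 3), against 22.2 ± 3.08 CPM in WT (SD, n = 4; log2 fold change -0.78, SE 0.126, adjusted p = 5.13e-04 by edgeR; corrected -0.77), and Rgs3, Rgs4 and Rgs16 were not called. Of 6 chondroitin sulphate proteoglycans other than Cspg4, Ptprz1, a receptor phosphatase, fell to 115.0 ± 6.30 CPM in KO (SD, n = 3), against 232.4 ± 24.4 CPM in WT (SD, n = 4; log2 fold change -1.02, SE 0.0979, adjusted p = 2.53e-06 by edgeR; corrected -0.62). Bcan rose by 0.65 (SE 0.174, adjusted p = 0.0117 by edgeR). Vcan fell by 0.32 (SE 0.116, adjusted p = 0.0462 by edgeR), and its direction turned after the correction (0.19, 0.117).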
